A study of Homo sapiens with 21 samples.

Results

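A set of 10 genes of protein folding in the endoplasmic reticulum (ER) were followed across a caffeine dose series: *HSPA5*, *HSP90B1*, *DNAJB9*, *DNAJB11*, *SDF2L1*, *PDIA4*, *CRELD2*, *MANF*, *HERPUD1* and *XBP1*. The genes were listed by symbol and matched by Ensembl gene ID without its version, and all 10 were found among the 37637 features of the deposited count table. RNA had been sequenced from HepG2 cells, a long-used line derived from a human liver tumour. The 7 groups were caffeine at 0, 0.01, 0.1, 1, 10, 100 or 1000 µM for 6 h, with 3 libraries per dose and 21 in all. The 0 µM group is labelled untreated. Cells of every group, the controls included, had their serum-containing medium replaced by serum-free DMEM for the exposure and were later detached with trypsin-EDTA. The overall design text calls the control 0 µM of a different compound (coumarin), which the per-sample labels do not mention, and the grouping used here rests on the latter. The replicates are called biological, without saying whether they were separate cultures or days, so the p-values measure the spread between these libraries.

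Proteins that enter the secretory pathway fold in the ER with the help of chaperones, many of which bind calcium, and a liver cell that secretes plasma proteins depends heavily on this machinery. When unfolded proteins accumulate, or ER calcium is lost, 3 sensors in the ER membrane (IRE1, PERK and ATF6) start the unfolded protein response. Cleaved ATF6 and the transcription factor XBP1 then raise the transcription of chaperone genes through ER stress response elements in their promoters. Caffeine opens ryanodine receptors, calcium channels of the ER, and is described as altering ER calcium in hepatocytes.

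The ER stress response element (ERSE) and its shorter form ERSE-II are the promoter sequences that several of these genes are known to share. The sequences that follow show every exact match in the RefSeq promoter windows of the 10 genes (GRCh38.p14, 250 bases before to 50 after the start). ERSE was searched on both strands as CCAAT, any 9 bases and CCACG, and ERSE-II as ATTGG, any 1 base and CCACG. No window held both. Each line gives the match with 5 flanking bases on either side, 5′ to 3′ on the strand that carries the motif, with the fixed letters of the motif in capitals.
HSPA5 ERSE, 66 bases upstream of the start: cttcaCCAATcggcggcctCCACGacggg
HSP90B1 ERSE, 194 bases upstream: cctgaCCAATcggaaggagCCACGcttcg
HSP90B1 ERSE, 89 bases upstream, opposite strand to the gene: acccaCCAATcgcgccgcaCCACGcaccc
CRELD2 ERSE, 80 bases upstream, opposite strand to the gene: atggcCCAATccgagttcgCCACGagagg
XBP1 ERSE, 52 bases upstream: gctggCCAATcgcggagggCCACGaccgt
SDF2L1 ERSE-II, 188 bases upstream, opposite strand to the gene: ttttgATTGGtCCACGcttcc
HERPUD1 ERSE-II, 117 bases upstream: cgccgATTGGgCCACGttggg

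In the order printed, the matches with their flanks lie at chr9:125241386-125241414, chr12:103930211-103930239, chr12:103930316-103930344, chr22:49918549-49918577, chr22:28800598-28800626, chr22:21642109-21642129 and chr16:56932020-56932040. Exact matches were present for 6 of the 10 genes and were not found in the windows of *DNAJB9*, *DNAJB11*, *PDIA4* and *MANF*. Of all 35116 promoter windows, 27 (0.0769%) held an exact ERSE, 19 (0.0541%) an exact ERSE-II and 46 (0.131%) either. These shares count windows and not genes. *XBP1* and *PDIA4* had 2 windows each and the other genes 1, and 1 of the 2 for *XBP1* held its match. Distances are from the start used for the RefSeq window. GENCODE 29 begins *HSP90B1* and *CRELD2* further upstream, so their matches lie inside the gene spans given with that annotation. It also begins *SDF2L1*, *HERPUD1* and *XBP1* further upstream and *HSPA5* further downstream, with their matches outside the gene spans. Distances counted from those spans would differ from the ones printed. A match is a description of the letters and no evidence of binding.

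Longer promoter stretches are given for *SDF2L1*, the gene that fell furthest in these cells, and *HSPA5*, the best known ERSE gene, each on its gene's own strand with the fixed motif letters in capitals. The *SDF2L1* motif therefore reads there as its reverse complement.
SDF2L1, 250 to 101 bases upstream (chr22:21642052-21642201, plus strand): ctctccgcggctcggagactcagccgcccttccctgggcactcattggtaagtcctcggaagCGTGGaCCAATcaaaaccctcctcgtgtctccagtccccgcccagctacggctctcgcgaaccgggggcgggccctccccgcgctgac
HSPA5, 150 to 1 bases upstream (chr9:125241344-125241493, minus strand): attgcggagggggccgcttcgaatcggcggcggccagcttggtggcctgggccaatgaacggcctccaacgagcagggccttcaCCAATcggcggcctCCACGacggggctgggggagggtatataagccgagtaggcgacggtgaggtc

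*XBP1* is controlled after transcription as well: the sensor IRE1 cuts a short intron out of its mRNA, which shifts the reading frame and yields the active transcription factor. That intron of 26 bases lies in exon 4 of 5, inside the coding sequence, at chr22:28796127-28796152 on the minus strand (GRCh38, GENCODE 29, where 3 of 5 coding transcripts contain it). It is printed from a transcript that contains it, in capitals, with 25 bases on either side, and bases repeated at its ends allow 7 equal placements.
XBP1 around the IRE1 intron: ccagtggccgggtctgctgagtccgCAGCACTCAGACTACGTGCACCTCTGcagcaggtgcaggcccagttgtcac
The table counts reads per gene, so every *XBP1* value given here sums the cut and uncut forms, and the share of the cut form was not measured.

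In GENCODE 29 (GRCh38), *HSPA5* (ENSG00000044574) spans chr9:125234853-125241330 on the minus strand and *HSP90B1* (ENSG00000166598) chr12:103930107-103953645 on the plus strand. *DNAJB9* (ENSG00000128590) lies at chr7:108569568-108574850 (plus), *DNAJB11* (ENSG00000090520) at chr3:186567403-186585800 (plus) and *SDF2L1* (ENSG00000128228) at chr22:21642261-21644298 (plus). *PDIA4* (ENSG00000155660) lies at chr7:149003062-149028641 (minus), *CRELD2* (ENSG00000184164) at chr22:49918167-49927540 (plus) and *MANF* (ENSG00000145050) at chr3:51385047-51389397 (plus). *HERPUD1* (ENSG00000051108) spans chr16:56932048-56944863 (plus) and *XBP1* (ENSG00000100219) chr22:28794555-28800597 (minus).

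The libraries held 28043623 to 40827833 counts each (median 32497612). All 8 hepatocyte markers examined were detected in each library, with at least 136053 counts of albumin (*ALB*). The levels differed widely, and *FGB* had 1437 to 1977 counts and *TTR* 2013 to 4290. Of 8 matched markers of blood, endothelial and fibroblast cells, 6 had at most 9 counts in any library. *CD68* (1954 to 3659 counts) and *LYZ* (27878 to 49382 counts) were detected, *CD68* in the range of *TTR* and *LYZ* above it. The share of counts from the mitochondrial genome ran from 4.95% to 14.2% between libraries. It was highest in 1 library each of the 1, 0.01 and 10 µM groups (14.2%, 11.7% and 11.3%), so results were also computed without those 3 libraries.

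Levels per length of transcript, in CPM (a gene's count scaled to its library's TMM-adjusted size) per kilobase, set the order of the genes in untreated cells. The highest was *HSP90B1* (GRP94, the HSP90 chaperone of the ER) at 499 ± 28.8 CPM per kilobase (SD, n = 3), followed by *HSPA5* (BiP, the HSP70 chaperone of the ER) at 405 ± 32.5. *PDIA4*, a disulfide isomerase, followed at 242 ± 11.8 CPM per kilobase and *XBP1* at 190 ± 4.21. *MANF* stood at 95.9 ± 9.77 CPM per kilobase. *SDF2L1* (58.5 ± 10.5), *DNAJB11* (53.0 ± 4.57) and *CRELD2* (45.6 ± 3.23 CPM per kilobase) came next, and the mean ± SD ranges of neighbours among these 3 overlapped. *HERPUD1* followed at 29.4 ± 3.45 and *DNAJB9* was lowest at 6.55 ± 0.572 CPM per kilobase. At 1000 µM *SDF2L1* stood at 16.2 ± 2.97 CPM per kilobase, below *CRELD2* (20.5 ± 1.42) and *HERPUD1* (20.3 ± 1.79) by about the spread between libraries.

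**Figure D1:**
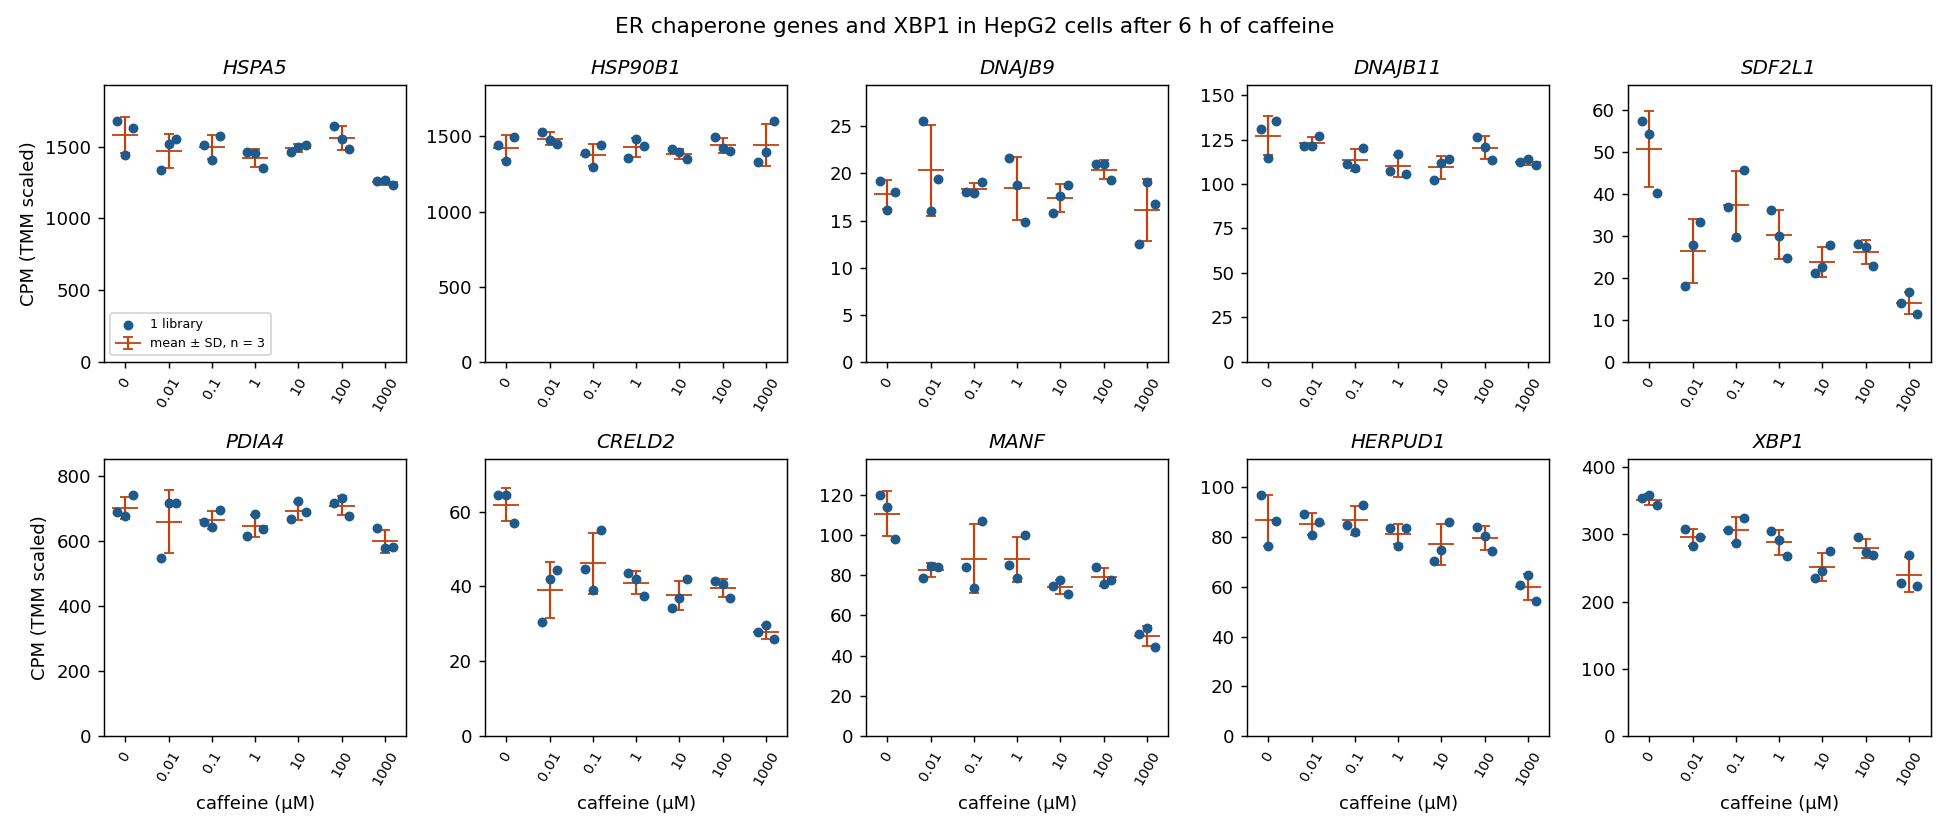
Level of each gene in CPM (vertical axis, own scale per panel) in each of the 3 libraries per caffeine dose (points; horizontal axis, dose in µM by step) with the group mean and SD (n = 3). The 1000 µM points of *SDF2L1*, *CRELD2* and *MANF* lie below all others, and those of *SDF2L1* and *MANF* at 0.1 µM overlap the controls, whereas those of *HSP90B1* stay between 1299 and 1603 CPM.

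At 1000 µM, 6 of the 10 genes were lower than in untreated cells and none was higher. *SDF2L1* fell to 27.7% of its control mean, *CRELD2* and *MANF* each to 44.9%, *XBP1* to 68.2%, *HERPUD1* to 69.1% and *HSPA5* to 79.2%. Every gene was tested with edgeR's quasi-likelihood test over all 17468 genes that passed the filter on low counts, with Benjamini-Hochberg adjustment and a threshold of 0.05, and all 10 passed the filter. The same test called 41.2% of all genes changed at 1000 µM and 20.6% lower. The median log2 fold change of the 10 genes was -0.43, beside -0.03 for all genes tested. In bulk RNA, less transcript in every cell and fewer cells with the transcript cannot be told apart.

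Of the main chaperones, *HSPA5* was lower at 1000 µM and *HSP90B1* did not pass the test. *HSPA5* binds unfolded chains and holds the stress sensors inactive. It was read at 1678, 1438 and 1631 CPM in the 3 untreated libraries and at 1262, 1269 and 1229 CPM at 1000 µM. The 1000 µM libraries were the lowest of all 21, and the gene fell by 0.34 ± 0.08 on the log2 scale (SE; edgeR adjusted p = 0.00232). Without a filter on low counts this change no longer passed (-0.30, adjusted p = 0.0624). At the other 5 doses the log2 fold change of *HSPA5* lay between -0.15 and -0.02, and none passed. *HSP90B1*, which folds a narrower set of clients such as receptors and integrins, was read at 1442, 1335 and 1497 CPM without caffeine and at 1330, 1395 and 1603 CPM at 1000 µM. The groups overlapped, and the log2 fold change was 0.02 ± 0.08 (adjusted p = 0.875). With a correction for GC content and transcript length, added after seeing the data, the value was -0.15 and did not pass (adjusted p = 0.123).

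The J-domain proteins, which deliver clients to HSPA5 and start its ATP hydrolysis, did not pass the test at any dose. *DNAJB9* (ERdj4), also known for holding IRE1 inactive, was read at 19.2, 16.1 and 18.1 CPM without caffeine and at 12.6, 19.1 and 16.8 CPM at 1000 µM. These groups overlapped (log2 fold change -0.14 ± 0.17, adjusted p = 0.522). After the GC and length correction its value was -0.35 and passed (adjusted p = 0.0177), and without 1000 µM replicate 1 it was 0.04. *DNAJB11* (ERdj3) was read at 131.1, 114.7 and 135.4 CPM without caffeine and at 112.6, 114.3 and 111.0 CPM at 1000 µM. Its 1000 µM libraries lay just below the lowest control, with a log2 fold change of -0.17 ± 0.08 (adjusted p = 0.0846). Without 0 µM replicate 2 that value was -0.24 and passed (adjusted p = 0.0318). Exons of *HSP90B1*, *DNAJB9*, *DNAJB11* and *CRELD2* overlap exons of other genes in GENCODE 29, and whether counting used strand is not given in the sources used here, so their counts may include reads of the neighbour.

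*SDF2L1* encodes a soluble ER protein that binds DNAJB11 and supports the HSPA5 cycle, and its transcript fell the furthest of the 10. It was read at 57.4, 54.2 and 40.3 CPM in untreated cells. The 0.01 µM libraries gave 18.2, 27.9 and 33.3 CPM, those at 0.1 µM gave 36.9, 29.7 and 45.8 CPM, and those at 1 µM gave 36.3, 30.0 and 24.6 CPM. Of these 9 libraries, 8 were below every control. The 10 µM readings were 21.2, 22.6 and 28.0 CPM, the 100 µM readings 28.1, 27.4 and 22.8 CPM, and the 1000 µM readings 13.9, 16.6 and 11.5 CPM. All 3 libraries at 1000 µM were below the other 18, and 17 of 18 treated libraries were below the lowest control. The log2 fold change at 1000 µM was -1.85 ± 0.22 (edgeR adjusted p = 7.06e-06).

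*PDIA4* and *CRELD2* both act on disulfide bonds. *PDIA4* (ERp72), which makes and rearranges disulfide bonds, was read at 690.6, 678.0 and 742.4 CPM without caffeine and at 639.5, 577.9 and 581.4 CPM at 1000 µM. These groups did not overlap, but the log2 fold change of -0.23 ± 0.09 did not pass (adjusted p = 0.0530). It passed without the 3 libraries of highest mitochondrial share (-0.21, adjusted p = 0.0170), which made 7 lower genes at 1000 µM in place of 6. The percentage of all genes called without those libraries was not computed. *CRELD2*, a secreted disulfide-isomerase-like protein made under ER stress, was read at 64.5, 64.4 and 56.9 CPM in untreated cells. With 0.01 µM the libraries gave 30.4, 42.0 and 44.5 CPM, with 0.1 µM they gave 44.6, 38.9 and 55.0 CPM, and with 1 µM they gave 43.7, 41.9 and 37.5 CPM. The 10 µM libraries gave 34.1, 36.8 and 41.9 CPM, the 100 µM libraries 41.6, 40.5 and 36.9 CPM, and the 1000 µM libraries 27.8, 29.8 and 25.9 CPM. Each of the 18 treated libraries lay below the lowest control, and the log2 fold change at 1000 µM was -1.15 ± 0.14 (edgeR adjusted p = 7.06e-06).

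*MANF* is a small ER protein that binds HSPA5 and is released from cells when ER calcium falls. Its untreated libraries gave 119.9, 113.8 and 98.1 CPM, and those at 1000 µM 51.0, 53.8 and 44.2 CPM. Between them, the 15 libraries at the other doses ran from 70.6 to 107.0 CPM, and 2 of them exceeded the lowest control. The log2 fold change at 1000 µM was -1.15 ± 0.13 (edgeR adjusted p = 2.48e-06).

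*HERPUD1*, an ER membrane protein that assembles the machinery for degrading misfolded proteins, was read at 96.9, 76.6 and 86.6 CPM without caffeine and at 60.8, 64.7 and 54.2 CPM at 1000 µM. The 1000 µM libraries were below all 18 others (log2 fold change -0.53 ± 0.10, adjusted p = 0.000438). At 0.01 to 100 µM its log2 fold change lay between -0.17 and 0.00, and none passed. *XBP1* was read at 353.7, 358.4 and 343.2 CPM without caffeine. The 10 µM libraries gave 235.1, 244.8 and 274.5 CPM, and the 1000 µM libraries 227.5, 269.5 and 222.8 CPM. Each of its 18 treated libraries was below the lowest control, the highest treated one being 325.1 CPM at 0.1 µM. The log2 fold change at 1000 µM was -0.55 ± 0.09 (edgeR adjusted p = 0.000107).

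Transcript length and base composition differed among the genes, and the sizes of these changes moved when both were corrected for. *SDF2L1* has a principal transcript of 865 bases with 65.5% GC, *CRELD2* one of 1357 bases with 59.8% GC and *MANF* one of 1153 bases with 54.4% GC, whereas the tested genes had medians of 2769 bases and 49.7% GC. With the GC and length correction, the log2 fold change at 1000 µM was -0.98 for *SDF2L1* (adjusted p = 0.000939), -0.65 for *CRELD2* (7.89e-05) and -0.71 for *MANF* (4.35e-07). These 3 falls still passed but were smaller, while that of *HSPA5* was larger at -0.51 (adjusted p = 0.000108). *XBP1* (-0.40) and *HERPUD1* (-0.58) moved less. With *DNAJB9* added, 7 genes passed in that fit, against 6 without the correction, all lower. The percentage of all genes called in the corrected fit was not computed, so its counts stand without one.

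**Figure D2:**
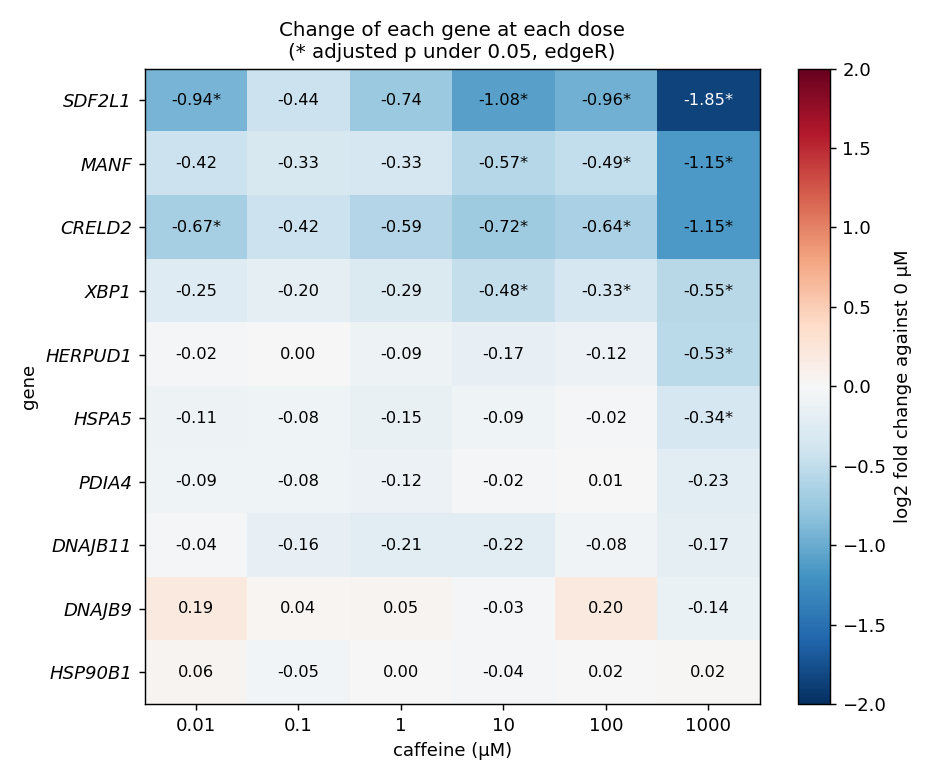
Log2 fold change of each gene (rows) at each caffeine dose (columns, µM) against 0 µM, coloured from blue (lower) to red (higher), without the GC and length correction; asterisks mark an edgeR adjusted p under 0.05. *SDF2L1* and *CRELD2* are lower at every dose, from -0.44 and -0.42 at 0.1 µM to -1.85 and -1.15 at 1000 µM, and the 0.1 and 1 µM columns hold no asterisk.

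The 6 doses share the same 3 control libraries, so their comparisons with 0 µM are not independent of each other. At 0.01 µM, *SDF2L1* (-0.94 ± 0.22, edgeR adjusted p = 0.0392) and *CRELD2* (-0.67 ± 0.14, adjusted p = 0.0392) were lower, where 4.95% of all genes passed and 2.08% were lower. Neither passed when replicate 1 or 2 of the untreated group or of the 0.01 µM group was left out alone, or without the 3 libraries of highest mitochondrial share, which left 0 genes. The GC and length correction also left 0, with *SDF2L1* at -0.48 and *CRELD2* at -0.35.

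At 0.1 µM none of the 10 genes, and 0% of all genes tested, passed edgeR's test, although 3 of the 10 had an unadjusted p under 0.05, as did 15.2% of all genes. DESeq2 also called 0 of the 10, and 3.49% of the 15148 genes to which it gave an adjusted p. Without 0.1 µM replicate 3, 2 passed (*CRELD2* and *MANF*). At 1 µM again none of the 10 and 0% of all genes passed edgeR's test. There 5 had an unadjusted p under 0.05, as did 22.8% of all genes. DESeq2 called 3 (*SDF2L1*, *CRELD2* and *XBP1*), and 10.7% of the 13138 genes to which it gave an adjusted p. Without 1 µM replicate 1, 2 passed (*SDF2L1* and *CRELD2*).

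At 10 µM 4 genes were lower, where 22% of all genes passed and 10.7% were lower. They were *SDF2L1* (-1.08 ± 0.22, edgeR adjusted p = 0.00447), *CRELD2* (-0.72 ± 0.14, 0.00407), *MANF* (-0.57 ± 0.12, 0.00561) and *XBP1* (-0.48 ± 0.09, 0.00374). With the GC and length correction all 4 still passed, at -0.58, -0.42, -0.27 and -0.35. The same 4 names were lower at 100 µM, where 6.02% of all genes passed and 3.27% were lower. There *SDF2L1* stood at -0.96 ± 0.21 (edgeR adjusted p = 0.0236), *CRELD2* at -0.64 ± 0.14 (0.0202), *MANF* at -0.49 ± 0.12 (0.0327) and *XBP1* at -0.33 ± 0.09 (0.0368). No gene passed once either of the untreated replicates 1 and 2, or either of the 100 µM replicates 2 and 3, was left out, and 2 passed without 100 µM replicate 1. The GC and length correction ended the call of *SDF2L1* at 100 µM (-0.56, adjusted p = 0.0831) and gave -0.41 for *CRELD2*, -0.23 for *MANF* and -0.22 for *XBP1*, which passed.

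Counts of genes whose 3 libraries all lay below all 3 controls gave a view without a model. The 0.01 µM group had 4 of the 10 (16.3% of all genes), the 0.1 µM group 2 (12.4%) and the 1 µM group 3 (12.5%). The 10 µM group had 5 (23.4%), the 100 µM group 4 (22%) and the 1000 µM group 8 (27.3%). The only gene with all 3 libraries above the controls in any dose was *DNAJB9* at 100 µM, where 21% of all genes did so, and it did not pass the test (log2 fold change 0.20, adjusted p = 0.479). *CRELD2* and *XBP1* had all 18 treated libraries below the controls, as did 2.1% of all genes. All 3 libraries at 1000 µM were below the 18 others for 5 of the 10 genes (*SDF2L1*, *CRELD2*, *MANF*, *HERPUD1* and *HSPA5*), against 5.26% of all genes.

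The untreated and the low-dose libraries were then set apart. Against 0 µM, the mean of the 3 lowest doses was lower for 4 genes, where 8.8% of all genes passed and 3.86% were lower. These were *SDF2L1* (-0.70 ± 0.17, edgeR adjusted p = 0.0242), *CRELD2* (-0.56 ± 0.11, 0.0208), *MANF* (-0.36 ± 0.10, 0.0336) and *XBP1* (-0.25 ± 0.07, 0.0390). None passed without 0 µM replicate 1 or without 0 µM replicate 2. The count was 2 without replicate 1 or 2 of the 0.1 µM group or replicate 2 of the 1 µM group. With the GC and length correction *CRELD2* alone passed (-0.30, adjusted p = 0.0418), and *SDF2L1* stood at -0.29, *MANF* at -0.12 and *XBP1* at -0.13.

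The next comparisons had the untreated libraries on neither side, although these libraries still entered the shared fit, its scaling and its estimate of spread. At 1000 µM against the 3 lowest doses 6 genes were lower, where 30.1% of all genes passed and 14% were lower. These were *SDF2L1* (-1.15 ± 0.19, edgeR adjusted p = 0.000168), *MANF* (-0.79 ± 0.11, 1.9e-05), *CRELD2* (-0.59 ± 0.12, 0.000797), *HERPUD1* (-0.50 ± 0.08, 0.000218), *XBP1* (-0.31 ± 0.07, 0.00384) and *HSPA5* (-0.22 ± 0.06, 0.0138). *HSPA5* did not pass without 1000 µM replicate 3 (adjusted p = 0.0766). With the GC and length correction these 6 passed, with *SDF2L1* at -0.69, *CRELD2* at -0.35 and *HSPA5* at -0.32, and *DNAJB9* passed as well (-0.40, adjusted p = 0.00263).

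Against 100 µM, 5 genes were lower at 1000 µM, where 14.7% of all genes passed and 6.55% were lower. These were *SDF2L1* (-0.89 ± 0.22, edgeR adjusted p = 0.01), *MANF* (-0.67 ± 0.12, 0.00151), *CRELD2* (-0.51 ± 0.14, 0.0177), *HERPUD1* (-0.41 ± 0.10, 0.00983) and *HSPA5* (-0.32 ± 0.08, 0.0108). *XBP1* did not pass (-0.22 ± 0.09, 0.0990). The count was 1 without 1000 µM replicate 3 and 2 without 100 µM replicate 1. The GC and length correction ended the calls of *SDF2L1* (-0.41, adjusted p = 0.174) and *CRELD2* (-0.24, 0.115).

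A slope fitted over the doses in rank order (0 to 6) passed for 5 genes, where 29% of all genes passed and 14.5% sloped downwards. On average per step, *SDF2L1* fell by 0.22 on the log2 scale, *CRELD2* by 0.13, *MANF* by 0.13, *XBP1* by 0.07 and *HERPUD1* by 0.07. The edgeR adjusted p ran from 0.000496 to 0.00414. The fall was not even over the doses. Against 0 µM, the log2 fold change of *SDF2L1* was -0.94 at 0.01 µM, -0.44 at 0.1 µM and -1.85 at 1000 µM. That of *HERPUD1* lay between -0.17 and 0.00 up to 100 µM and was -0.53 at 1000 µM. With the GC and length correction the slope was -0.13 for *SDF2L1*, -0.08 for *CRELD2* and -0.08 for *MANF*, and these passed. Without the 3 libraries at 0 µM the *CRELD2* slope was -0.09 and did not pass (adjusted p = 0.0634).

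Across libraries some of the genes moved together more closely than others. Over the 21 libraries, the log2 CPM of *SDF2L1* and *CRELD2* had a Pearson r of 0.980, *SDF2L1* and *MANF* 0.896, *CRELD2* and *MANF* 0.884, and *SDF2L1* and *XBP1* 0.875. *HSPA5* was closest to *PDIA4* (0.810). *HSP90B1* and *DNAJB9* stood apart. For *HSP90B1* r ran from -0.228 (with *SDF2L1*) to 0.423 (with *DNAJB11*), and for *DNAJB9* from -0.125 (with *PDIA4*) to 0.503 (with *HERPUD1*). These values are descriptions, since the points share doses, library composition and transcript properties.

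For *HSPA5*, *DNAJB11*, *SDF2L1* and *CRELD2* the spread within doses went with the mitochondrial share. The lowest library of a dose was the one with the highest mitochondrial share in 7 of 7 doses for *HSPA5* and *DNAJB11*, and in 6 of 7 for *SDF2L1* and *CRELD2*. The count was 5 for *DNAJB9*, *PDIA4*, *HERPUD1* and *XBP1*, and 3 for *HSP90B1* and *MANF*. Among all genes, 3.13% reached at least 6 of 7 doses and 0.372% reached 7. The share of all genes at fewer doses was not computed, so the counts of 5 and 3 stand without one. Mean shares per dose ran from 6.12% at 0.1 µM to 9.25% at 10 µM, with 7.27% at 0 µM and 8.64% at 1000 µM. With the share as a covariate, 6 genes were still lower at 1000 µM and 0 at 0.01 µM. The percentage of all genes called in that fit was not computed.

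**Figure D3:**
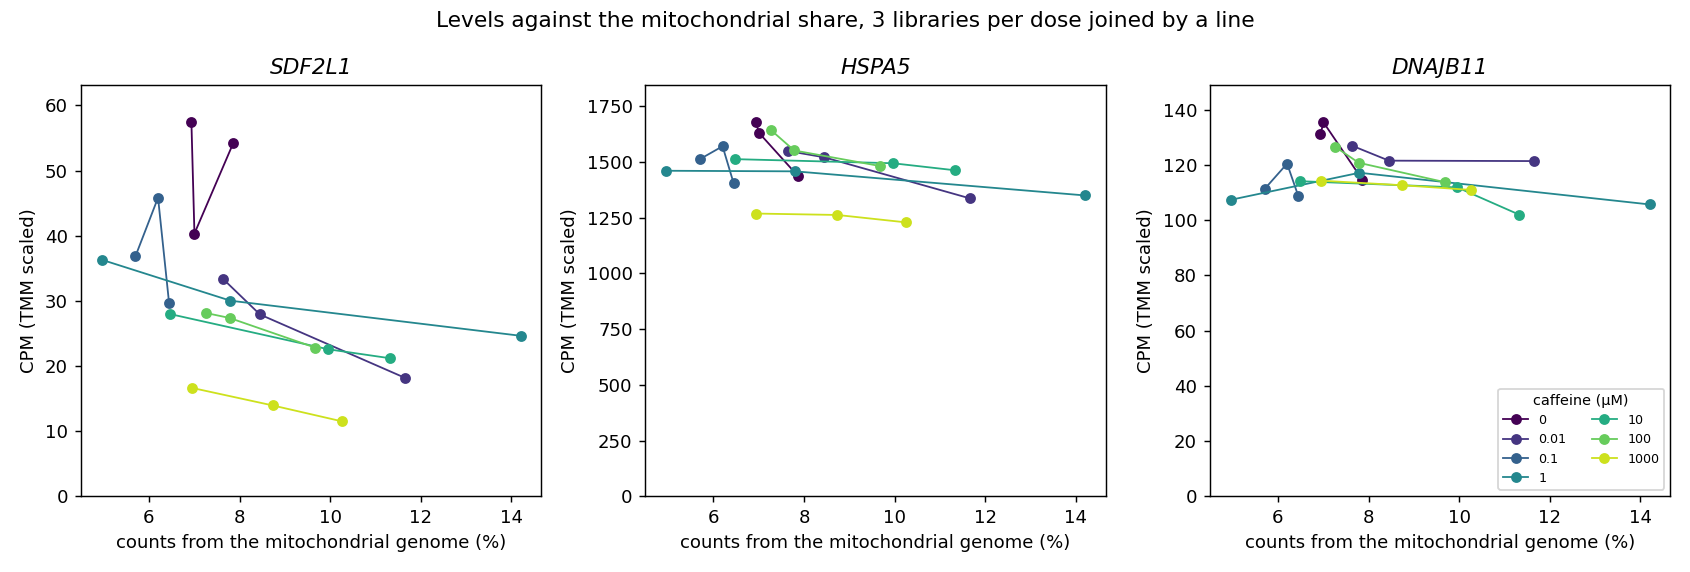
Share of each library's counts from the mitochondrial genome (horizontal axis, percent) against the level of *SDF2L1*, *HSPA5* and *DNAJB11* in CPM (vertical axis, own scale per panel), 1 point per library, with the 3 libraries of a caffeine dose in 1 colour and joined by a line. Within most doses the library furthest to the right is the lowest for *HSPA5* and *SDF2L1*, while the 1000 µM libraries of *SDF2L1* are the lowest at shares of 6.94% to 10.3%.

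Other genes of the pathway were taken as 5 lists. Among 22 further ER chaperones and folding enzymes, 7 were lower and 2 higher at 1000 µM (median log2 fold change -0.20), where 20.6% of all genes were lower and 20.6% higher. The correction for GC and length gave 9 lower and 0 higher (median -0.12). Corrected counts, here and in the lists that follow, have no percentage of all genes beside them, since none was computed for that fit. *FKBP2*, a prolyl isomerase, went from 50.3 ± 3.77 to 20.5 ± 8.50 CPM (SD, n = 3; log2 fold change -1.29 ± 0.28, edgeR adjusted p = 0.00122). *PPIB*, another prolyl isomerase, changed by -0.57 ± 0.12 and *SIL1*, a nucleotide exchange factor of HSPA5, by -0.51 ± 0.13. With the GC and length correction *FKBP2* stood at -0.58 and *SIL1* at -0.19, which passed, and *PPIB* at -0.04, which did not. *CANX* (calnexin) and *UGGT2*, a glucosyltransferase that senses misfolded glycoproteins, were the 2 higher genes (0.28 and 0.32). With the correction they stood at -0.04 and -0.14 and did not pass. Without replicate 1 or 2 of the untreated group or replicate 3 of the 1000 µM group neither passed.

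Of 15 genes of translocation and signal peptide cleavage, 6 were lower and 2 higher (median -0.30), beside 20.6% of all genes in each direction. With the correction 6 were lower and 1 higher. *SSR4* and *SSR3*, subunits of the translocon-associated protein complex, changed by -0.83 ± 0.13 and -0.42 ± 0.09, and *SRPRB*, a subunit of the signal recognition particle receptor, by -0.42 ± 0.10. With the correction *SSR4* stood at -0.30 and did not pass, and *SSR3* stood at -0.75 and passed. Exons of *SRPRB* overlap on the same strand those of *TF*, a hepatocyte marker with 81155 to 163023 counts per library. *SRPRB* had 1522 to 2652 counts, which may include reads of *TF*. Other genes named from the lists, such as *SSR4*, *SIL1*, *PPIB* and *DDIT3*, also overlap exons of neighbouring genes.

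ER-associated degradation, in which misfolded proteins are returned to the cytosol, had 15 of its 16 listed genes tested. Of these, 5 were higher and 1 lower (median -0.02), beside 20.6% of all genes in each direction. With the correction 2 were higher and 3 lower (median 0.07). *FAF2*, which recruits the VCP ATPase to the ER, changed by 0.47 ± 0.08 and *ERLEC1*, a lectin, by 0.41 ± 0.10. *EDEM2*, which trims mannose from misfolded glycoproteins, was the lower one at -0.67 ± 0.15. After the correction *FAF2* (0.25) and *EDEM2* (-0.42) passed and *ERLEC1* (0.25) did not.

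Of the 6 stress sensors and their activating proteases, 4 were higher and 0 lower at 1000 µM (median 0.41), where 20.6% of all genes were higher, and the 2 that did not pass also had positive values. With the correction 4 were higher and 0 lower (median 0.26), but these were not the same 4 genes. *ERN1*, which encodes IRE1, went from 13.1 ± 0.800 to 23.4 ± 1.53 CPM (0.84 ± 0.13, edgeR adjusted p = 6.37e-05). *ATF6* went from 44.6 ± 1.59 to 69.4 ± 4.75 CPM (0.64 ± 0.08, adjusted p = 7.06e-06), and *MBTPS1*, the site-1 protease that cleaves ATF6, from 100.5 ± 1.86 to 134.4 ± 1.94 CPM (0.42 ± 0.07). These 3 passed with the correction too, where *ATF6* was reduced to 0.20. *EIF2AK3*, which encodes PERK, was the other gene to pass without the correction (0.28, adjusted p = 0.0306). With the correction it stood at 0.02 and did not pass (adjusted p = 0.876), nor did it pass without replicate 1 or 2 of the untreated group or replicate 3 of the 1000 µM group. Its log2 fold change against 0 µM was no smaller at the lower doses, at 0.39 with 0.01 µM (adjusted p = 0.0392) and 0.46 with 10 µM (adjusted p = 0.00535), and 1000 µM against the 3 lowest doses gave -0.06 (adjusted p = 0.625).

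In the branch led by ATF4, a transcription factor translated when PERK or other kinases phosphorylate eIF2α, 5 of 10 genes were higher and 2 lower at 1000 µM (median 0.34), beside 20.6% of all genes in each direction. With the correction 6 were higher and 0 lower (median 0.41). *CHAC1*, which degrades glutathione, went from 2.31 ± 0.125 to 6.26 ± 1.36 CPM (1.44 ± 0.22, edgeR adjusted p = 7.81e-05). *ATF4* went from 597.5 ± 45.5 to 958.3 ± 174.0 CPM (0.68 ± 0.13), and *VLDLR*, a lipoprotein receptor, from 9.67 ± 0.742 to 14.9 ± 0.395 CPM (0.63 ± 0.10). With the correction *CHAC1* (1.92) and *ATF4* (0.96) passed and *VLDLR* (0.20) did not. *DDIT3*, which encodes the pro-apoptotic factor CHOP, was lower without the correction (-0.59, adjusted p = 0.00191), as was *TRIB3* (-0.31, adjusted p = 0.0339). With the correction neither passed (-0.19, adjusted p = 0.128, and 0.01, adjusted p = 0.939). *TRIB3* also did not pass without replicate 1 or 2 of the untreated group or replicate 1 or 3 of the 1000 µM group. Against 0 µM, *TRIB3* was also lower at 0.01 µM (-0.51, edgeR adjusted p = 0.0392). For 1000 µM against the 3 lowest doses, its log2 fold change was 0.09 (adjusted p = 0.487). At 10 µM, where 10.7% of all genes were lower and 11.3% higher, this list had 4 lower genes and 0 higher. The lower ones were *ATF4* itself (-0.39, edgeR adjusted p = 0.0397), *TRIB3* (-0.48, 0.00787), *ASNS* (-0.29, 0.0383) and *DDIT4* (-0.46, 0.0334). From 0.01 to 100 µM the log2 fold change of *ATF4* lay between -0.41 and -0.13, so its rise was seen at 1000 µM only.

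**Figure D4:**
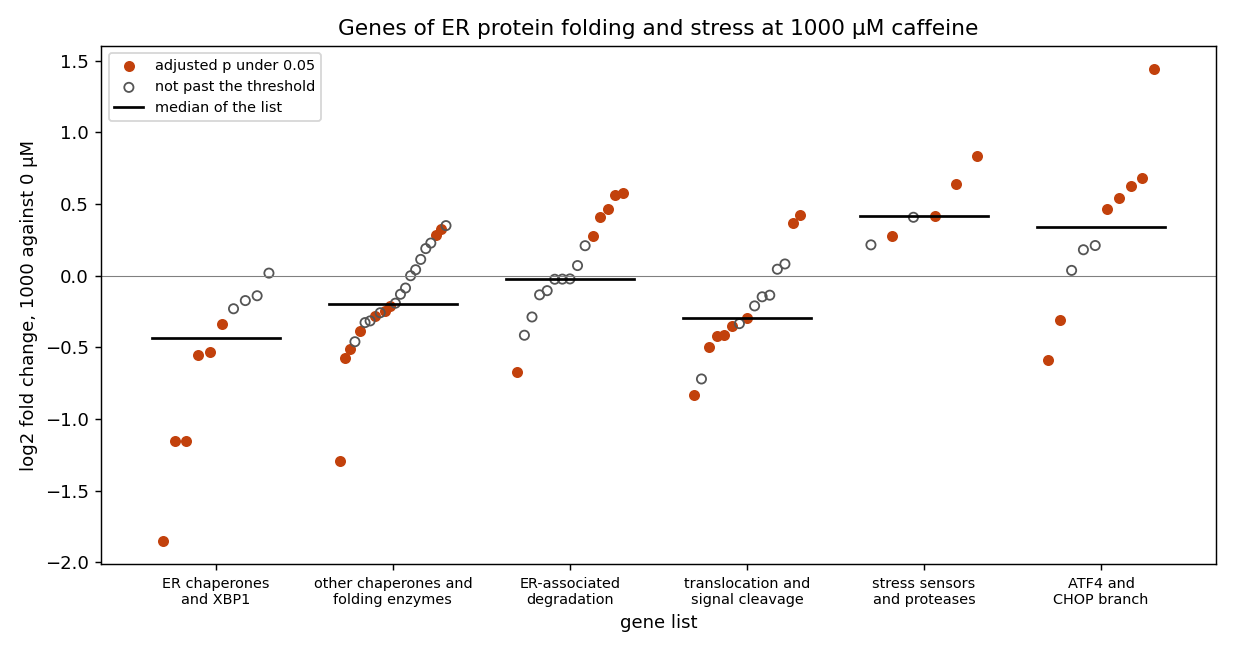
Log2 fold change at 1000 µM against 0 µM (vertical axis) for each tested gene of the 10 genes described here and the 5 lists of the pathway (horizontal axis), without the GC and length correction; filled points have an edgeR adjusted p under 0.05 and black lines are medians. The 6 sensors and proteases all lie above 0, while 15 of the 22 further chaperones lie below it.

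The genes whose pattern over the 21 libraries was most like that of the 10 together were sought among 10583 other genes with a symbol and a mean of at least 5 CPM. Likeness was the Pearson r of a gene's log2 CPM with the mean of the 10 standardised profiles. The first were *POP4*, a subunit of RNase P (r = 0.952), *CBY1* (0.937), *FDPS*, an enzyme of cholesterol synthesis (0.930), *HMGN3* (0.928) and *FAHD1* (0.928). *MPC2*, a subunit of the mitochondrial pyruvate carrier (0.925), *NSDHL*, another enzyme of cholesterol synthesis (0.919), *SEC11C*, a subunit of the signal peptidase (0.919), *STN1* (0.916) and *THYN1* (0.914) followed. At 1000 µM their log2 fold changes, without the GC and length correction, ran from -0.90 (*MPC2*) to -0.44 (*FAHD1*). Likeness to the mean profile need not be likeness to each gene, since *HSP90B1* had r of at most 0.423 with any other of the 10. As with the pairs, these values are descriptions, because the points share doses, library composition and transcript properties.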

How the data were processed

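The authors deposited whole-number read counts per gene, without normalization. HISAT2, DESeq2 and GRCh38 are named per the submitters' processing notes; the counting program, annotation and strand setting are not given in the sources used here. Of 42 sample columns, 21 match no sample here and were not used. Counts were tested with edgeR 4.0.16 in R 4.3.3 (quasi-likelihood test, TMM scaling, expression filter with a minimum count of 10) in 1 fit of 21 libraries and 7 groups, with 14 residual degrees of freedom, a common biological coefficient of variation of 0.162 and Benjamini-Hochberg adjustment over 17468 genes. SEs come from the log2 fold change over the root of its F statistic. Log2 CPM used a prior count of 2. Lengths, GC content and overlaps come from GENCODE 29, promoters from RefSeq GRCh38.p14. The test was tested on simulated data.

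No 2 libraries of the same dose agreed within sampling noise. DESeq2 1.42.0, other scalings, other filters, a mitochondrial covariate, a replicate block and leaving out libraries were the alternatives. The GC and length correction (lowess curves per library, for 15694 genes with values) and leaving out the 3 libraries of highest mitochondrial share were added after seeing the data.

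The genes described, the lists and the tests were chosen with earlier results of these data known. All 10 genes are named, as are up to 3 genes per list with the smallest p at 1000 µM that passed with a mean of at least 1 CPM, and the 10 genes most alike. In each list, other genes were named after their values were seen.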

Additional observations from a re-analysis of the deposited data

How the results depend on the processing

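At 1000 µM against 0 µM and against the 3 lowest doses, at 10 µM and for the slope, the number of genes that passed stayed within 1.5 times under each alternative run. At 0.01 µM the count of 2 became 4 with DESeq2. It became 0 with the replicate block, the mitochondrial covariate, the GC and length correction (with or without the block), without the 3 libraries of highest mitochondrial share, and with only the samples compared. At 1 µM the count of 0 became 3 with DESeq2 and 1 without a filter. At 100 µM the count of 4 became 2 without a filter, 2 with the replicate block, and 1 with the block and the GC and length correction. For the 3 lowest doses against 0 µM the count of 4 became 2 without a filter, 2 with the replicate block, 1 with the GC and length correction, 0 with that correction and the block, and 0 with only the samples compared. Of 1300 alternative values for 72 single-gene results, 1140 kept their direction and side of the threshold, 125 no longer passed, 21 newly passed and 14 reversed. The cause of these changes was not tested.

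The reversed values were those of *HSP90B1* with the correction, at 1000 µM against 0 µM (-0.15 with and without the block) and against the 3 lowest doses (-0.12 with and without the block), and values with 1 library left out. With the correction at 1000 µM against 0 µM, *CANX* (-0.037, with the block -0.035), *UGGT2* (-0.14 with and without the block) and *TRIB3* (0.014, with the block 0.015) also reversed. Leaving out 1 library at a time gave *HSP90B1* -0.063 to 0.10 against 0 µM and -0.069 to 0.082 against the 3 lowest doses, and *DNAJB9* -0.26 to 0.039 at 1000 µM. The number of genes that passed then ran from 0 to 3 for the 0.01 µM group, 0 to 2 for the 0.1 µM group and 0 to 2 for the 1 µM group. It ran from 4 to 5 for the 10 µM group, 0 to 3 for the 100 µM group and 6 to 7 for the 1000 µM group. The count was 1 to 6 for 1000 against 100 µM, 5 to 7 for 1000 µM against the 3 lowest doses, 0 to 4 for the 3 lowest doses against 0 µM, and 5 to 6 for the slope.

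Little sign was seen that the replicate numbers pair the libraries, but large differences between single libraries could hide a shared day. Over 63 pairs with the same number, deviations from the group means had r from -0.437 to 0.249 (median 0.02, other pairs -0.005), and 5 of 21 libraries correlated best with their own number. The lowest count of any of the 10 genes in any library was 363 (*SDF2L1* at 1000 µM).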
